A study of Mus musculus with 4 samples.

Results

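The Bcl2 family genes Bcl2, Bcl2l1, Mcl1, Bax, Bak1, Bok, Bcl2l11, Bbc3, Pmaip1, and Bid were followed in 3 mouse cell lines measured by single-cell RNA sequencing. The members were taken by gene symbol, and all 10 were found once among the 33565 genes of each matrix. N2a (Neuro-2a) is a neuroblastoma line, NIH/3T3 is an embryonic fibroblast line, and the mESCs are embryonic stem cells of the E14TG2a line. N2a and NIH/3T3 cells were cultured in DMEM with 10% fetal bovine serum. The mESCs were cultured on gelatin with 15% serum, leukemia inhibitory factor, 3 μM CHIR99021, a GSK3 inhibitor, and 1 μM PD0325901, a MEK inhibitor, so that line and medium cannot be told apart. The labels name no treatment and no genetic change for any line, which does not show that there is none. The cells were encapsulated and barcoded with the CapSeq method, in which the opening barcode, BC1, records the plate column: 1 to 4 for N2a, 5 to 8 for NIH/3T3, and 9 to 12 for mESCs.

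Apoptosis through mitochondria is set by the balance of Bcl2 family proteins. The anti-apoptotic proteins bind and hold back their relatives, the effectors form pores in the outer mitochondrial membrane from which cytochrome c escapes, and the BH3-only proteins carry stress signals by binding the other classes. Much of this control acts on the proteins, through binding, phosphorylation, and rapid turnover, so RNA levels describe only the transcript side of the balance. In the order used here, Bcl2, Bcl2l1 (Bcl-xL), and Mcl1 are anti-apoptotic, Bax, Bak1, and Bok are effectors, and Bcl2l11 (Bim), Bbc3 (Puma), Pmaip1 (Noxa), and Bid are BH3-only.

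Barcodes were kept as cells from 1000 UMIs upward if mitochondrial genes gave no more than 20% of them, which left 2323 N2a, 2037 NIH/3T3, and 2137 mESC cells, 6497 in all. Median UMIs per cell were 6185 in N2a, 4863 for NIH/3T3, and 4803 in mESCs, and the cells held 17955221, 11697865, and 12322098 UMIs. With a single library for each line, no comparison was tested and p-values are left out. Levels are CPM, the UMIs of a gene summed over cells and scaled to a total of 1000000 UMIs, with exact Poisson 95% intervals, and shares carry exact binomial intervals. Both cover counting error only. As a view of the spread within a library, levels were also calculated for each of the 32 BC1 sequences of a line, which held 33 to 102 cells each and are wells of 1 library, not replicates. No barcode held UMIs in more than 1 line (0 barcodes), which the split of reads by BC1 fixed in advance, so this is no check of the lines. The line labels were checked against marker genes, 6 for N2a, such as Gap43, 7 for NIH/3T3, such as Col1a1, and 7 for mESCs, such as Pou5f1. All were detected in their own line, and the summed level of a list in another line was 0.138% to 1.04% of that in its own.

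The stretch of 250 bases before the annotated start is shown for Bcl2, Mcl1, and Bax, since these genes give the largest contrast in the anti-apoptotic class and the largest share of the effector class in mESCs. The sequences were read from GRCm39 on the strand of the gene with starts of GENCODE M39. Bcl2 is on the minus strand (chr1:106642061-106642310), Mcl1 on the plus strand (chr3:95565776-95566025), and Bax on the minus strand (chr7:45116326-45116575). Capitals mark matches, on either strand, to GGGCGG or CACGTG, in the stretches shown.
Bcl2: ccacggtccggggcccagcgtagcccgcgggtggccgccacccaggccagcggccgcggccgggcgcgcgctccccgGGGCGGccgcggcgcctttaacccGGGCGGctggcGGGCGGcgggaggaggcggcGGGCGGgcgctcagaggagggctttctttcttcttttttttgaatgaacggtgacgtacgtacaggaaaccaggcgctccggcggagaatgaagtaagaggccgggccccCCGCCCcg
Mcl1: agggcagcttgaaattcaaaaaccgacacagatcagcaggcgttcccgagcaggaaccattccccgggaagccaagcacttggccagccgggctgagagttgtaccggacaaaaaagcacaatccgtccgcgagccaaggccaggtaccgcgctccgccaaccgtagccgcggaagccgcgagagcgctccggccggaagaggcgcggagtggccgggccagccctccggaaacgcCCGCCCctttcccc
Bax: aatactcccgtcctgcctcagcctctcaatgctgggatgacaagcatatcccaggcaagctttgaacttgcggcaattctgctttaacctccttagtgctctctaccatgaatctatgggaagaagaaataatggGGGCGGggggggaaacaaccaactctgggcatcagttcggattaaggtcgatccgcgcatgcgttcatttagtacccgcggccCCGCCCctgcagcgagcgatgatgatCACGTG
The Bcl2 stretch held 5 matches to GGGCGG, that of Mcl1 held 1, and that of Bax held 2 and 1 match to CACGTG. Among 32940 promoters of the same length, 29.2% held GGGCGG and 5.60% held CACGTG. These promoters were taken without a filter on gene type or level, so they are not matched to expressed genes such as the members. The stretches of Bcl2, Mcl1, and Bax held no match to TATAAA, present in 12.2% of promoters, none to CCAAT, present in 35.8%, and none to the STAT motif TTCNNNGAA, present in 7.69%. The GC content was 74% for Bcl2, 65.6% for Mcl1, and 53.6% for Bax, against a median of 51.2% over these promoters. A match is a run of letters, and binding to it was not measured.

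The members took 0.0457% of all UMIs in N2a, 0.0514% of those in NIH/3T3, and 0.0678% in mESCs, or 8201, 6008, and 8352 UMIs. All 10 members had at least 1 UMI in N2a and mESCs, and 9 had one in NIH/3T3. All 10 passed the minimum of 5 CPM in at least 1 line that 13000 genes passed. The plot of member levels shows that no line was highest or lowest throughout.

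**Figure D1:**
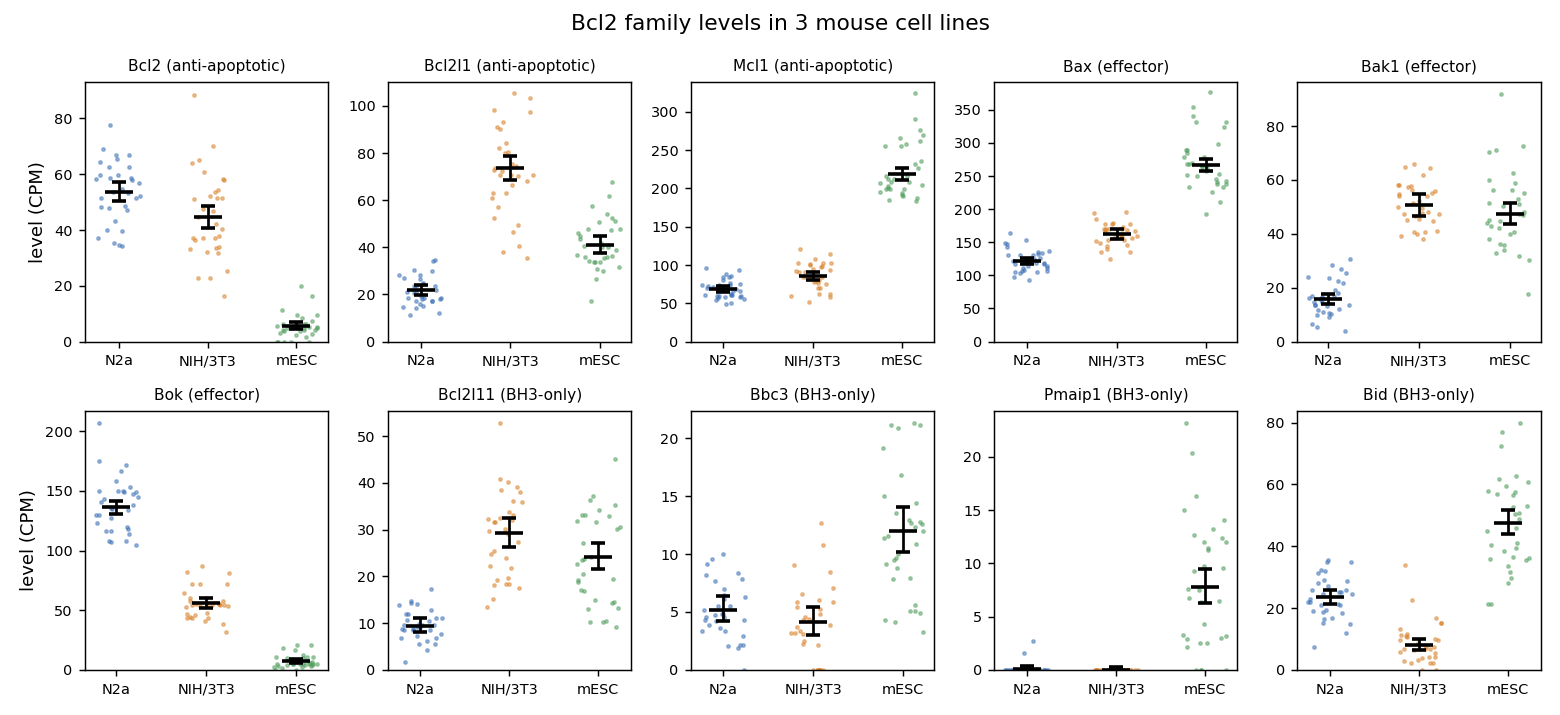
Levels of the 10 genes in CPM of summed UMIs (vertical axes start at 0 and differ between panels) in N2a, NIH/3T3, and mESCs; black bars are line levels with exact Poisson 95% intervals, and points are the 32 BC1 sequences of each line. Bcl2 and Bok sit near the bottom in mESCs, Mcl1 and Bax sit highest there, and Bcl2l1 is highest in NIH/3T3.

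Among the anti-apoptotic genes, mESCs held far less Bcl2 and far more Mcl1 than the other lines. Bcl2, the founding survival gene of the family, was at 53.7 CPM (50.4 to 57.2) in N2a, 44.6 CPM (40.9 to 48.6) in NIH/3T3, and 5.68 CPM (4.43 to 7.18) in mESCs. N2a was 9.45-fold higher than mESCs (7.41 to 12.2), NIH/3T3 7.86-fold higher than mESCs (6.11 to 10.2), and N2a 1.20-fold higher than NIH/3T3 (1.08 to 1.34). Over BC1 sequences, Bcl2 ran from 34.4 to 77.8 CPM in N2a (median 54.1), from 16.2 to 88.5 CPM in NIH/3T3 (median 43.3), and from 0 to 19.8 CPM in mESCs (median 4.81). The N2a and mESC ranges were apart, those of NIH/3T3 and mESCs overlapped at their ends, and those of N2a and NIH/3T3 overlapped along most of their length. Bcl2 overlaps D630008O14Rik on the opposite strand, and whether counting used strand is not given in the sources used here.

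Mcl1, which encodes a short-lived protein that cells must keep making, had the opposite order. Its level was 68.8 CPM (65.1 to 72.8) in N2a, 85.7 CPM (80.4 to 91.1) in NIH/3T3, and 219.0 CPM (210.8 to 227.4) in mESCs. The mESC level was 3.18-fold that of N2a (2.97 to 3.40) and 2.56-fold that of NIH/3T3 (2.38 to 2.75). The lowest of the mESC BC1 sequences, at 183.0 CPM, was above the highest of N2a, at 96.7 CPM, and the highest of NIH/3T3, at 121.6 CPM. Bcl2l1, the gene of Bcl-xL, was highest in the fibroblasts, at 73.5 CPM (68.7 to 78.6), against 41.0 CPM (37.5 to 44.7) in mESCs and 21.8 CPM (19.7 to 24.1) in N2a. NIH/3T3 exceeded N2a 3.37-fold (2.98 to 3.80), with BC1 ranges that just failed to meet (35.4 to 105.3 CPM against 11.3 to 34.8 CPM), and exceeded mESCs 1.79-fold (1.61 to 2.01), with ranges that overlapped. The line with the highest level thus differed for each anti-apoptotic gene, although the lead of N2a over NIH/3T3 in Bcl2 was small beside the spread over BC1 sequences.

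Among the effectors, Bok showed the widest differences between lines, and in the whole family it was exceeded by Pmaip1 alone, which had few counts. Bok, a relative of Bax and Bak1, was at 136.5 CPM (131.1 to 142.0) in N2a, 55.7 CPM (51.5 to 60.1) in NIH/3T3, and 7.06 CPM (5.66 to 8.71) in mESCs. N2a was 19.3-fold higher than mESCs (15.6 to 24.2) and 2.45-fold higher than NIH/3T3 (2.25 to 2.68), and NIH/3T3 was 7.88-fold higher than mESCs (6.29 to 9.98). Its BC1 ranges were apart for all 3 pairs, at 104.9 to 207.1 CPM, 31.6 to 87.3 CPM, and 0 to 20.6 CPM. Bok was the gene of the family with this separation in every pair.

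Bax, which moves from the cytosol to mitochondria when activated, was lowest for N2a, at 121.7 CPM (116.7 to 127.0), followed by NIH/3T3, at 162.1 CPM (154.9 to 169.5), and highest for mESCs, at 266.0 CPM (257.0 to 275.3). The mESC level was 2.19-fold that of N2a (2.07 to 2.31) and 1.64-fold that of NIH/3T3 (1.55 to 1.74). The mESC BC1 sequences, from 192.0 to 377.2 CPM, lay above those of N2a, from 93.6 to 163.5 CPM, and met those of NIH/3T3, from 124.9 to 195.7 CPM. Bak1, the other main pore former, was at 50.7 CPM (46.7 to 54.9) in NIH/3T3 and 47.5 CPM (43.7 to 51.5) in mESCs, a ratio of 1.07 (0.951 to 1.20) whose interval holds 1. In N2a it was at 15.8 CPM (14.0 to 17.8), so NIH/3T3 was 3.20-fold higher (2.78 to 3.71) and mESCs 3.00-fold higher (2.60 to 3.47). Bak1 overlaps Ggnbp1 on the opposite strand, so its counts carry the same doubt as those of Bcl2.

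The BH3-only genes gave fewer UMIs than the other classes in every line. Bid, which the death receptor pathway cleaves to reach mitochondria, was highest in mESCs, at 47.6 CPM (43.9 to 51.7), intermediate in N2a, at 23.6 CPM (21.4 to 26.0), and lowest in NIH/3T3, at 8.04 CPM (6.49 to 9.83). The mESC level was 5.93-fold that of NIH/3T3 (4.76 to 7.45) and 2.02-fold that of N2a (1.78 to 2.29), and N2a was 2.94-fold above NIH/3T3 (2.35 to 3.71). Bid overlaps Bcl2l13 on the opposite strand, with the same doubt. Bcl2l11, the gene of the broadly binding activator Bim, was at 29.2 CPM (26.2 to 32.5) in NIH/3T3, 24.2 CPM (21.5 to 27.1) in mESCs, and 9.47 CPM (8.10 to 11.0) in N2a. NIH/3T3 and mESCs differed 1.21-fold (1.03 to 1.42), and N2a was 3.09-fold below NIH/3T3 (2.56 to 3.73) and 2.55-fold below mESCs (2.11 to 3.10). For both genes, the BC1 ranges overlapped in every pair.

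The p53 targets Bbc3 and Pmaip1 were highest in mESCs. Bbc3 was at 12.0 CPM (10.2 to 14.1) in mESCs against 5.18 CPM (4.18 to 6.35) in N2a cells and 4.10 CPM (3.03 to 5.44) in NIH/3T3, from 148, 93, and 48 UMIs. The ratio of N2a to NIH/3T3 was 1.26 (0.882 to 1.83), which was not resolved at this depth. Pmaip1 had 96 UMIs in mESCs, 7.79 CPM (6.31 to 9.51), 2 UMIs in N2a, 0.111 CPM (0.0135 to 0.402), and 0 UMIs in NIH/3T3. There, the exact Poisson interval ends at 0.315 CPM, and 3 counts, taken as the floor, are 0.256 CPM. The mESC level was 30.4-fold this floor, while the exact conditional interval of its ratio to NIH/3T3 starts at 24.2. Its ratio to N2a was 69.9 (18.8 to 585.8). The mESC UMIs of Pmaip1 were spread over 76 cells, 3.56% (2.81 to 4.43), while 0 of 2037 NIH/3T3 cells had one, which allows a share of up to 0.147% by the same floor (exact binomial upper end 0.181%).

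A difference was called where log2 of the ratio of CPM + 1 was at least 1 in size, and the called members were read against all 13000 genes. Between N2a and mESCs, 6 of 10 members were higher in mESCs (Mcl1, Bax, Bak1, Bcl2l11, Bbc3, and Pmaip1), against 20.7% of all genes, and 2 were higher in N2a (Bcl2 and Bok), against 21.5%. The call of Bbc3 was lost with cells thinned to 1000 UMIs (log2 difference of N2a over mESCs −0.38), without the 5% of cells with the most UMIs (−0.96), and with 5 CPM added (−0.74), where −1.07 was the main value. The thinned value rests on a single random draw that left 15 Bbc3 UMIs in mESCs and 12 in N2a. Between NIH/3T3 and mESCs, 4 were higher in mESCs (Mcl1, Bbc3, Pmaip1, and Bid), against 22.8%, of which Bbc3 was lost with 5 CPM added (−0.90), and 2 were higher in NIH/3T3 (Bcl2 and Bok), against 20.7%. Between N2a and NIH/3T3, 3 were higher in NIH/3T3 (Bcl2l1, Bak1, and Bcl2l11), against 17.5%, and 2 were higher in N2a (Bok and Bid), against 19.2%. The share of members called was above that of all genes for mESCs over both other lines and for NIH/3T3 over N2a, and close to it in the other directions. Pmaip1 passed the minimum of 5 CPM only through mESCs, so its calls could fall only on their side. Without Pmaip1 and Bbc3, Mcl1 and Bid were left for mESCs over NIH/3T3. With 10 members, these shares rest on few genes and are a description.

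BC1 ranges did not overlap for 3 members between N2a and NIH/3T3 (Bcl2l1, Bak1, and Bok), against 19% of all genes. They did not overlap for 4 between N2a and mESCs (Bcl2, Mcl1, Bax, and Bok), against 21.3%, and for 2 between NIH/3T3 and mESCs (Mcl1 and Bok), against 18.4%. The median difference of the members was −0.08 on the log2 scale for N2a over NIH/3T3, −1.10 for N2a over mESCs, and −0.31 for NIH/3T3 over mESCs, where all genes had 0.04, 0.03, and −0.02. The comparisons share lines, so they do not count as separate evidence.

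**Figure D2:**
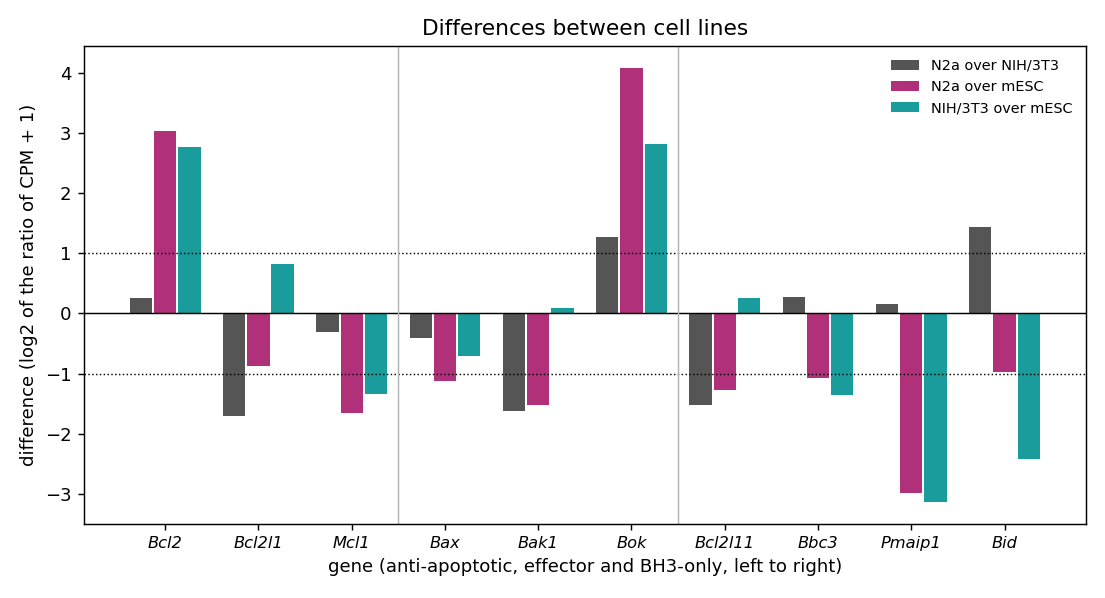
Difference of each gene between 2 lines, as log2 of the ratio of CPM + 1, with a bar for each pair of lines and dotted lines at 2-fold; counting intervals are not drawn. Bcl2 and Bok point up in both comparisons with mESCs, Mcl1 and Pmaip1 point down in both, and Bak1 and Bcl2l11 are near 0 for NIH/3T3 over mESCs.

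The anti-apoptotic genes took 31.6% of the members' UMIs in N2a (30.6 to 32.6), 39.7% of those in NIH/3T3 (38.4 to 40.9), and 39.2% for mESCs (38.1 to 40.2). The intervals of NIH/3T3 and mESCs overlapped, and that of N2a lay below both. Both statements rest on single genes. Without Bok, N2a had 45.1% against 44.5% for NIH/3T3 and 39.6% for mESCs, so that N2a was no longer lowest and lay close to NIH/3T3. Without Mcl1, the share of mESCs fell to 10.2%, against 19.5% for N2a and 27.6% for NIH/3T3. Effectors took 60.0%, 52.3%, and 47.3%, and BH3-only genes took 8.40% (7.81 to 9.02), 8.06% (7.38 to 8.77), and 13.5% (12.8 to 14.3), in the same order of lines. In anti-apoptotic UMIs per pro-apoptotic UMI, this was 0.462, 0.658, and 0.644. In levels, the anti-apoptotic class was at 144.4, 203.8, and 265.6 CPM, while the effector class was at 274.0, 268.4, and 320.6 CPM and the BH3-only class at 38.4, 41.4, and 91.6 CPM. Over BC1 sequences, the anti-apoptotic share ranged from 23.7% to 38.6% in N2a, from 29.5% to 47.8% in NIH/3T3, and from 33.9% to 45.5% in mESCs, so these ranges overlapped in every pair. A UMI was counted once per molecule, but longer transcripts can be captured more often. With each level divided by the longest annotated transcript, the anti-apoptotic share was 14.9%, 20.2%, and 20.7%, with N2a again lowest.

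The genes that made up the classes differed between lines. As shares of UMIs, Mcl1 took 47.7%, Bcl2 37.2%, and Bcl2l1 15.1% of the anti-apoptotic class in N2a, 42.0%, 21.9%, and 36.1% in NIH/3T3, and 82.4%, 2.14%, and 15.4% for mESCs. Among effector UMIs, Bok took 49.8% and Bax 44.4% for N2a, against 20.7% and 60.4% for NIH/3T3 and 2.20% and 83.0% for mESCs. Whether these counts rise with transcript length was not tested, so shares per length are given only as another view. On the scale of UMIs per kilobase of longest transcript, Mcl1 took 83.4% of the anti-apoptotic class in mESCs, 59.1% in N2a, and 47.5% in NIH/3T3. Bcl2 took 22.2% in N2a, 11.9% for NIH/3T3, and 1.04% in mESCs, and Bcl2l1 took 40.5% in NIH/3T3, 18.6% in N2a, and 15.5% in mESCs. Among the effectors on this scale per kilobase, Bax rather than Bok led in N2a, and Bax led in all 3 lines, with 61.1% in N2a, 75.7% for NIH/3T3, and 91.3% in mESCs, and Bok took 35.2% in N2a and 1.24% in mESCs. In the BH3-only class per kilobase, Bid led in N2a with 57.6% and in mESCs with 46.5%, and Bcl2l11 led in NIH/3T3 with 63.4%.

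**Figure D3:**
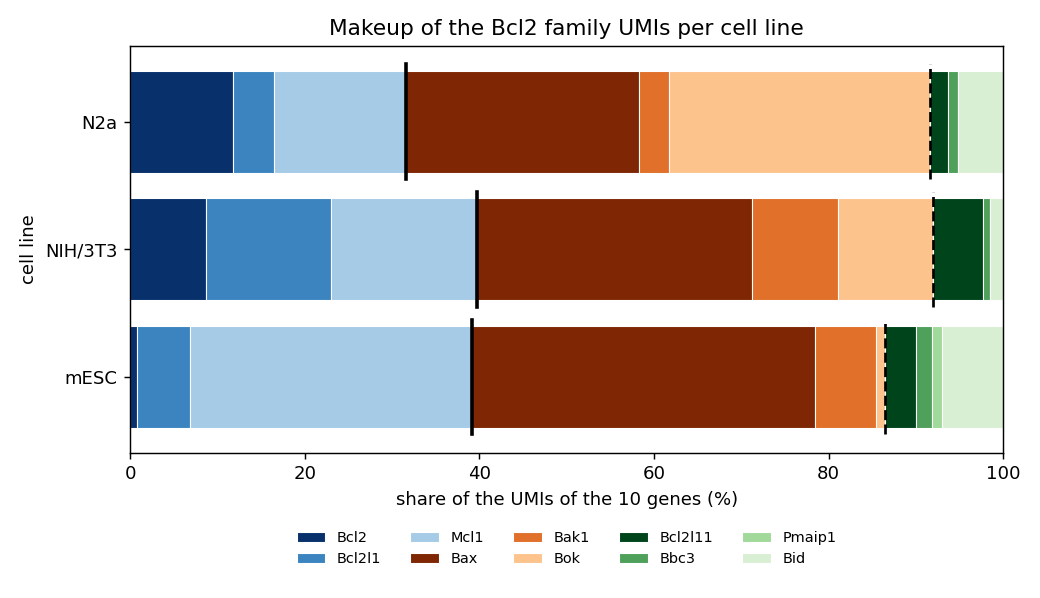
Share of the UMIs of the 10 genes (horizontal axis, percent, not divided by length) in each line; solid lines end the anti-apoptotic genes (blues), dashed lines end the effectors (browns), and greens are BH3-only. The solid line is at 31.6% in N2a, 39.7% for NIH/3T3, and 39.2% in mESCs, while Mcl1 widens and Bcl2 narrows in mESCs.

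In single cells, most members were seen in a minority of cells. Bax had a UMI in 51.1% of N2a cells (49.1 to 53.2), 51.9% of NIH/3T3 cells (49.7 to 54.1), and 67.9% of mESC cells (65.8 to 69.8). Bok had one in 52.1%, 25.0%, and 3.74% of cells, Mcl1 in 36.3%, 35.7%, and 61.4%, and Bcl2 in 26.5%, 19.3%, and 2.57%. These shares depend on depth, and N2a cells were the deepest. Barcodes with fewer than 100 UMIs, which can hold free RNA, showed the same order of lines for Mcl1, at 82.9 CPM for N2a, 94.9 CPM for NIH/3T3, and 219.4 CPM for mESCs, so a cell with 1 UMI of a gene is not by itself shown to express it. Between lines, the Bcl2 and Bok UMIs of mESCs were above the carry-over of the markers, at ratios of 0.106 and 0.0517 to the N2a level, where the N2a markers were at 1.04% of theirs. Both an anti-apoptotic and a pro-apoptotic UMI were found in 46.6% of N2a cells (44.6 to 48.7), 46.4% of NIH/3T3 cells (44.3 to 48.6), and 58.1% of mESC cells (55.9 to 60.2). A pro-apoptotic UMI without an anti-apoptotic one was found in 29.1%, 25.0%, and 21.6% of cells, and the reverse in 9.38%, 12.4%, and 9.87%. With each cell thinned to 1000 UMIs, both kinds were found in 3.44% of N2a cells, 3.98% of NIH/3T3 cells, and 7.07% of mESC cells, so mESCs were highest at equal depth as well. Among cells with at least 5 member UMIs (672, 477, and 714 cells), the median anti-apoptotic share was 28.2% in N2a and 40% in both other lines.

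Among the members and lines with enough UMIs, Bcl2 and Bcl2l11 had the highest values of spread between cells. The spread was expressed as excess variance, the squared relative variation beyond that of counting at each cell's depth, which is 0 for pure counting. It was calculated for genes with at least 200 UMIs in a line, which left out Bbc3 and Pmaip1, Bcl2 and Bok in mESCs, Bcl2l11 in N2a, and Bid in NIH/3T3. Bcl2 had 0.875 in N2a and 0.962 in NIH/3T3, and Bcl2l11 had 1.07 in NIH/3T3 and 1.20 in mESCs. All 4 values were above the 90th percentile of all such genes in their line, which was 0.767 in N2a, 0.708 for NIH/3T3, and 0.891 in mESCs, with medians of 0.222, 0.229, and 0.267. Mcl1, Bax, and Bok were below these medians where calculated: Mcl1 had 0.0635, −0.0516, and 0.145, Bax 0.171, 0.121, and 0.0781, and Bok 0.169 in N2a and 0.174 in NIH/3T3. Abundance did not set this order alone: in NIH/3T3, Bcl2l1 had 860 UMIs against 651 for Bok, and its 0.270 was above the median. In N2a, 82 cells held 3 or more Bcl2 UMIs and a single cell held 12. For Bcl2l11 in mESCs, only 8 cells held 3 or more UMIs. The values carry no interval, and the genes behind the percentiles and medians were not matched to the members in abundance. Bcl2 also has the longest gene and transcript of the family, and the part of gene length in this spread was not tested.

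**Figure D4:**
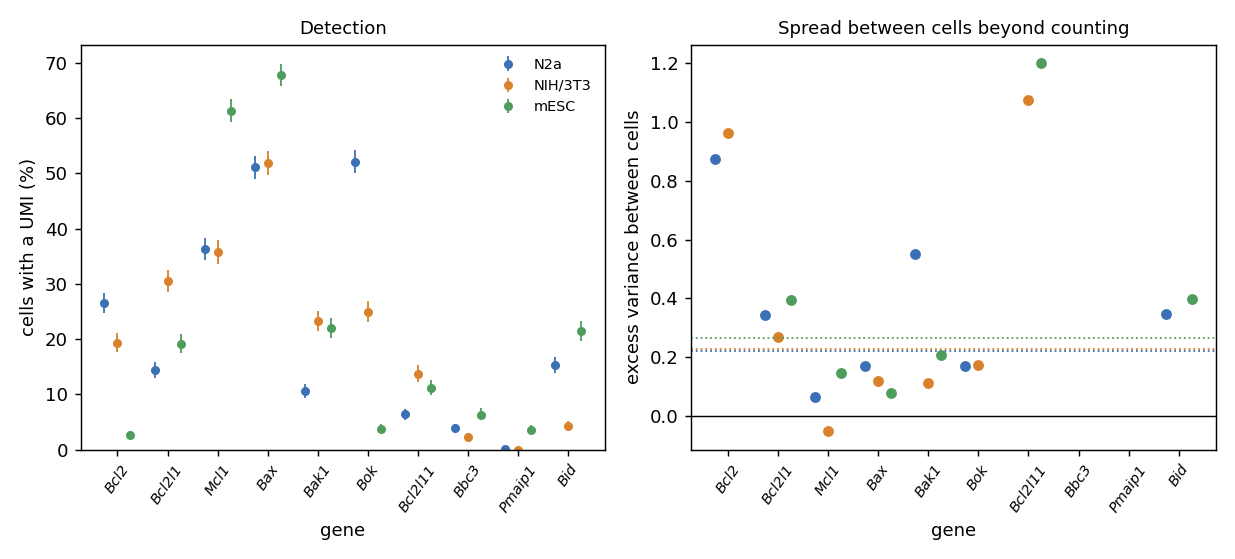
Left, percent of cells with a UMI of each gene with exact binomial 95% intervals, not corrected for depth; right, excess variance between cells for genes with at least 200 UMIs in the line, where dotted lines are medians over all such genes. Bcl2 and Bcl2l11 stand highest on the right, between 0.875 and 1.20, and Mcl1 and Bax lie below the dotted lines.

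Within a line, most members did not differ between cell cycle groups beyond counting error. In each line, the cells with the highest share of UMIs in a G2/M list (30 genes) or an S-phase list (34 genes), 580 N2a, 509 NIH/3T3, and 534 mESC cells for either list, were set against the other cells. These groups were cut by rank at a fixed size, so their cells were not called as being in a phase. Of 9 members with at least 50 UMIs in N2a, 3 had a G2/M interval that left out 1, against 25.4% of all genes at that count, and 2 had such an S-phase interval, against 28.5%. In NIH/3T3 it was 2 of 8 members for G2/M, against 24.2%, and 0 for S phase, against 16.8%. In mESCs it was 0 of 10 for G2/M, against 16%, and 3 for S phase, against 17.8%. The members' shares were thus close to or below those of all genes, apart from G2/M in N2a and S phase in mESCs, where they were somewhat above, on 3 members each. So few genes do not set the members apart from all genes, and the ratios that follow are a description. In N2a, Bok was 1.17-fold higher in the S-phase cells (1.07 to 1.28) and had a ratio of 0.894 in the G2/M cells (0.814 to 0.981), and Mcl1 had the opposite pattern, at 0.835 (0.725 to 0.959) and 1.15 (1.02 to 1.31). Bbc3, with 93 UMIs in N2a, had a ratio of 0.542 for G2/M (0.290 to 0.950). In NIH/3T3, Bcl2l1 had a ratio of 0.777 in the G2/M cells (0.661 to 0.911) and Bcl2l11 of 0.763 (0.587 to 0.984). In mESCs, Pmaip1 had a ratio of 0.439 in the S-phase cells (0.211 to 0.826), Bcl2l11 of 0.684 (0.494 to 0.930), and Bid of 1.25 (1.03 to 1.50). The anti-apoptotic share of member UMIs was also calculated for the cells of each line in 3 equal parts of low, middle, and high depth. It was 32.9%, 31.5%, and 31.4% in N2a, 36.8%, 41.9%, and 39.2% in NIH/3T3, and 36.6%, 40.0%, and 39.4% in mESCs, so N2a was lowest in each part. In the part of low depth, the N2a interval (29.8 to 36.1) overlapped those of NIH/3T3 (33.3 to 40.4) and mESCs (33.8 to 39.5).

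Other genes of the pathway were taken from a list of 50, of which 42 passed the minimum of 5 CPM. Between N2a and mESCs, 6 of 42 were higher in mESCs, against 20.7% of all genes, and 6 in N2a, against 21.5%. Between NIH/3T3 and mESCs, 11 were higher in NIH/3T3, against 20.7% of all genes, and 6 in mESCs, against 22.8%. Between N2a and NIH/3T3, 2 were higher in N2a, against 19.2%, and 8 in NIH/3T3, against 17.5%. The median difference of the list was 0.03 on the log2 scale for N2a over NIH/3T3, 0.09 for N2a over mESCs, and −0.07 for NIH/3T3 over mESCs. In NIH/3T3, 5 of the 42 genes were at least 2-fold above both other lines, against 10.5% of all genes, among them Casp8, the initiator caspase of death receptors, and Cflar, its inhibitor. Casp8 was at 109.2 CPM (103.3 to 115.3) in NIH/3T3 against 6.46 CPM in N2a and 5.92 CPM in mESCs, and Cflar at 121.0 CPM (114.8 to 127.5) against 13.9 CPM and 3.08 CPM. Casp6, an executioner caspase, was at 40.2 CPM in NIH/3T3 against 11.5 CPM and 7.06 CPM, and Bnip3, a BH3-like mitophagy gene, at 58.5 CPM against 19.5 CPM and 8.60 CPM. Bid, on which Casp8 acts, was lowest in that line.

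In N2a, 2 of the 42 genes were at least 2-fold above both other lines, against 11.3% of all genes: Bmf, a BH3-only gene, at 16.2 CPM (14.3 to 18.1) against 0.684 CPM for NIH/3T3 and 1.22 CPM in mESCs, and Ddit3, the stress factor CHOP, at 71.5 CPM (67.6 to 75.5) against 22.2 CPM and 9.58 CPM. The death receptor gene Tnfrsf10b was among 2 genes at least 2-fold below both other lines there, against 7.51% of all genes, at 0.278 CPM against 13.6 CPM for NIH/3T3 and 25.0 CPM in mESCs. In mESCs, 4 of the 42 genes were at least 2-fold above both other lines, against 13% of all genes: Bcl2l14, a Bcl2 relative, at 17.7 CPM against 0.446 CPM in N2a and 0 UMIs in NIH/3T3, Foxo1, a transcription factor, at 37.7 CPM against 0.780 CPM and 6.50 CPM, Usp9x, a deubiquitinase that stabilizes Mcl1 protein, at 1077 CPM against 405.2 CPM and 264.2 CPM, and Birc2, an inhibitor of apoptosis, at 42.6 CPM against 16.1 CPM and 14.8 CPM. Tnfrsf1a, the TNF receptor, was among 5 genes at least 2-fold below both other lines in mESCs, against 9.27% of all genes, at 3.57 CPM against 38.0 CPM in N2a and 41.9 CPM in NIH/3T3. Some genes passed the minimum of 5 CPM through 1 line only, such as Bcl2l14 through mESCs and Bmf through N2a. Their calls could fall only on the side of that line.

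All 12 genes of a p53 list passed the minimum. Between N2a and mESCs, 7 of them were higher in mESCs and 0 in N2a, between NIH/3T3 and mESCs, 4 were higher in mESCs and 0 in NIH/3T3, and between N2a and NIH/3T3, 3 were higher in NIH/3T3 and 1 in N2a. The shares of all genes were 20.7% and 22.8% for mESCs over N2a and over NIH/3T3, and 17.5% for NIH/3T3 over N2a. In the reverse directions they were 21.5%, 20.7%, and 19.2%. Trp53inp1 and Perp passed the minimum of 5 CPM only through mESCs, so their calls could fall only on the mESC side. Both are among the 7 genes called over N2a and the 4 called over NIH/3T3. The p53 genes were chosen with earlier results known, so their counts are a description. The median difference was −0.70 for N2a over NIH/3T3, −1.15 for N2a over mESCs, and −0.55 for NIH/3T3 over mESCs, and Bbc3 and Pmaip1 were not on this list. Trp53inp1, a p53 target, was at 105.9 CPM (100.2 to 111.8) in mESCs against 2.34 CPM in N2a and 4.36 CPM in NIH/3T3, and Perp had 113 UMIs in mESCs, at 9.17 CPM, and 0 UMIs in the other lines. In N2a, 3 genes of this list were at least 2-fold below both other lines, against 7.51% of all genes. Ccng1 was at 24.1 CPM against 151.3 CPM for NIH/3T3 and 180.9 CPM in mESCs, and Cdkn1a, the gene of p21, at 35.6 CPM against 120.8 CPM and 96.6 CPM, and Phlda3, a p53 target, was at 11.1 CPM against 83.9 CPM and 46.3 CPM. Sesn2 was lowest in NIH/3T3, at 19.4 CPM against 65.7 CPM in N2a and 78.6 CPM in mESCs.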

How the data were processed

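Single-cell RNA was measured with CapSeq in 3 cell lines, and the authors aligned and counted the reads with STARsolo (genome GRCm39, annotation GENCODE M30) after splitting them by BC1 and trimming. The deposited values are raw UMI counts for each gene and barcode, neither normalized nor filtered for cells, in 1 matrix per line and 1 pooled matrix. The STARsolo feature mode and the use of strand in counting are not given in the sources used here.

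From the deposited counts, barcodes with 1000 or more UMIs were kept if mitochondrial genes gave up to 20%, and 7 N2a, 15 NIH/3T3, and 18 mESC barcodes were removed by the mitochondrial limit. Doublets were not called, and the values were recalculated without the 5% of cells with the most UMIs. UMIs were summed per line and divided by the line's total to give CPM. Ratios carry exact conditional 95% intervals of 2 Poisson rates, and a count of 0 was taken to allow 3 counts. Genes with at least 5 CPM in 1 of the lines were compared on log2(CPM + 1), which understates changes of low genes. Gene lengths, starts, and overlaps came from GENCODE M39, in which 32953 of 33565 identifiers were found. All 10 members are described, and from each further list at most 4 genes per line, those with the largest ratio among genes at least 2-fold above, or below, both other lines. The UMIs of 2 identifiers of Ddit3 were summed. A gene of the N2a marker list is not reported here and was left out of its sum. The members and lists were chosen with earlier results of these data known, and the measure of spread between cells was added after the counts were seen. The calculations were tested on simulated data. For levels and ratios these were Poisson counts without further spread between cells, so the test checks the code and not how the intervals hold for these data. Python 3.11.15, numpy 2.4.6, scipy 1.17.1, and pandas 2.3.3 were used.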

Additional observations from a re-analysis of the deposited data

How the results depend on the processing

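No paired analysis was possible because each line had 1 library and no test was made. The level of a member stayed inside its main interval in 271 of 300 recalculated values, and no recalculated difference reversed a called direction. For genes with at least 50 UMIs, levels changed by a factor of 0.962 to 1.08 under other cell filters, the pooled matrix, or another scaling between lines, and by 1.10 to 1.14 without mitochondrial and ribosomal protein genes in the total. Thinning to 1000 UMIs per cell moved them by 0.584 to 1.18, where 0.584 was Bbc3 in mESCs, with 15 UMIs left in a single random draw. All 78 recalculated counts of called members stayed within 1.5 times the main count. The calls that changed were those of Bbc3, given above, and Bid, which became called for mESCs over N2a without the 5% of cells with the most UMIs (−1.02, against −0.98) and just reached the threshold without mitochondrial and ribosomal protein genes and with median-of-ratios scaling.

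The anti-apoptotic share was inside its main interval under every other filter, matrix, and thinning tried, and depended on which genes were summed. Without Mcl1 it was 19.5% in N2a, 27.6% for NIH/3T3, and 10.2% in mESCs, so that mESCs became lowest. Without Bax it was 43.1%, 58.0%, and 64.5%, so that mESCs became highest. Leaving out the other members was added after the data were seen. Without Bok it was 45.1%, 44.5%, and 39.6%, so that N2a was no longer lowest and lay close to NIH/3T3. Without Bcl2 it was 22.5% for N2a and 33.9% for NIH/3T3, without Bcl2l1 28.2%, 29.6%, and 35.3%, without Bak1 32.7%, 44.0%, and 42.1%, and without Bid 33.3% for N2a and 42.2% for mESCs. Without Bcl2l11 it was 42.1% in NIH/3T3 and 40.6% in mESCs, and with the wider family list added 30.2% in N2a and 38.2% in NIH/3T3. Per kilobase of longest transcript it was 14.9%, 20.2%, and 20.7%. Depth limits Pmaip1, Bbc3, the NIH/3T3 value of Bid, and the mESC values of Bcl2 and Bok, which rest on 148 UMIs or fewer each.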
